A study of Mus musculus with 13 samples.

Results

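The genes of the circadian clock were followed in the livers of obese mice given canagliflozin, of weight-matched calorie-restricted mice and of mice kept on their diet. The set held 10 genes: Arntl (also called Bmal1), Clock, Npas2, Per1, Per2, Per3, Nr1d1, Nr1d2, Dbp and Bhlhe40. A gene was taken where a probe set carried its symbol and no other, which held for 9 of the 10, each with 1 probe set. The only probe set of Per2 also carried the symbol of another locus and was left out. Npas2 lay below the limit for dim genes, so 8 clock genes stood among the 13308 genes tested, of 22180 genes with a probe set of their own.

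Liver RNA of 13 samples from male C57Bl/6J mice was measured on Affymetrix gene arrays, 1 array per sample. All mice were obese after 4 weeks, begun at 6 weeks of age, on a diet with 60% fat. Over 4 further weeks the CANA group (4 arrays) received canagliflozin, an inhibitor of the kidney glucose transporter SGLT2, with this diet. The labels put its dose at 25 to 30 mg/kg and the series' design text at 30 mg/kg. The CR group (5 arrays) had its calories cut by 15 to 30% to hold its weight to that of the CANA mice, and the HFD group (4 arrays) went on with the diet. No genotype other than the strain is given, and the labels name neither an hour of tissue collection nor a feeding schedule. They also do not say that each array came from its own animal, so the p-values below measure the spread from sample to sample, which may be technical. Each label carries a serial number between 1 and 14 and a second number between 4 and 24, neither of them explained.

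The values are log2 intensities, so that a difference of 1 is a doubling, and they carry no read depth. The medians of the arrays were 4.07 to 4.13, and over 22180 genes r was 0.986 to 0.992 between arrays. The 6 hepatocyte markers averaged 12.09 to 12.21 in CANA, 12.15 to 12.22 in CR and 12.13 to 12.17 in HFD arrays. The 6 Kupffer cell and macrophage markers averaged 6.44 to 6.95 in CANA, 5.81 to 6.74 in CR and 5.97 to 7.07 in HFD arrays, and their part in the results was not tested. In RNA of whole liver, fewer cells of a type and less RNA per cell cannot be told apart.

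The clock is a loop of transcription with delayed feedback that runs in nearly every cell of the liver. ARNTL pairs with CLOCK or NPAS2 and switches on genes with an E-box in their promoters, among them the Per genes, Nr1d1, Nr1d2, Dbp and Bhlhe40. PER proteins, with the cryptochromes, block the pair. NR1D1 and NR1D2 (REV-ERB alpha and beta) bind ROR elements and repress Arntl, DBP drives genes through D-boxes, and BHLHE40 represses E-box genes. In mouse liver the mRNA of Arntl and Npas2 is therefore known to peak at hours when that of Dbp and Nr1d1 is low.

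Promoter windows of 4 members held such elements and are given as a description of their sequence. RefSeq windows (GRCm38.p6) of 250 bases before to 50 after an annotated start were at hand for 8 of the 10 genes, in 12 windows. Per2 and Bhlhe40 were not among them. The windows were searched on both strands for the E-box CACGTG, the E-prime box CACGTT, the D-box TTATGTAA or TTACGTAA, and the ROR element TAGGTCA or TGGGTCA. Of the 12 windows, 1 held an E-box, 1 an E-prime box, 1 a D-box and 1 a ROR element. Among all 32851 promoter windows of the table, 7.15% held the E-box, 4.68% the E-prime box, 1.06% the D-box and 6.45% the ROR element. For the E-box and the ROR element, 1 of 12 windows lies near these shares. The windows of Per3, Nr1d1, Nr1d2 and Dbp held no E-box. A match is a description of these letters and no measure of binding. Arntl and Per1 each had 2 windows, of which 1 held no match. The Arntl window with a match is chr7:113207261-113207560 on the plus strand, with a ROR element 31 to 37 bases after the start. The Per1 window with a match is chr11:69098699-69098998 on the plus strand, with an E-box 166 to 161 bases before the start. The Per3 window is chr4:151044616-151044915 on the minus strand and held 2 D-boxes, 205 to 198 and 158 to 151 bases before the start. The Nr1d1 window is chr11:98775328-98775627 on the minus strand, with an E-prime box 28 to 23 bases before the start that reads on the opposite strand. Each sequence runs 5′ to 3′ along its gene, capitals mark the match, and no matches overlapped.
Arntl: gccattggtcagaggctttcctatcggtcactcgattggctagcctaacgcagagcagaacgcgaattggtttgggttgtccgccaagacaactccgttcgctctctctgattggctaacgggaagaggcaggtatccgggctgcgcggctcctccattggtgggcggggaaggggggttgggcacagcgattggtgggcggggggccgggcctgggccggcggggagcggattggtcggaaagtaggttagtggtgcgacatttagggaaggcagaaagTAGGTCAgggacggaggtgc
Per1: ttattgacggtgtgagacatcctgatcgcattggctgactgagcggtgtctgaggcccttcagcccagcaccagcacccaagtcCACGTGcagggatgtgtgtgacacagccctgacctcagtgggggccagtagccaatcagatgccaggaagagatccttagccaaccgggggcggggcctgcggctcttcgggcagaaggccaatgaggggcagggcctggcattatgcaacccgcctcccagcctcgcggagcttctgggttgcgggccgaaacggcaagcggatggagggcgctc
Per3: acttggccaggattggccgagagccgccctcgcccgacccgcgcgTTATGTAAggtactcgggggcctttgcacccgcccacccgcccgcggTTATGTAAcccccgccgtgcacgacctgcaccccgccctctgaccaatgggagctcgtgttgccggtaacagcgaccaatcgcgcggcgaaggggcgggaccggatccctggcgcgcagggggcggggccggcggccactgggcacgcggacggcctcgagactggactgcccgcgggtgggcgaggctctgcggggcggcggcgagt
Nr1d1: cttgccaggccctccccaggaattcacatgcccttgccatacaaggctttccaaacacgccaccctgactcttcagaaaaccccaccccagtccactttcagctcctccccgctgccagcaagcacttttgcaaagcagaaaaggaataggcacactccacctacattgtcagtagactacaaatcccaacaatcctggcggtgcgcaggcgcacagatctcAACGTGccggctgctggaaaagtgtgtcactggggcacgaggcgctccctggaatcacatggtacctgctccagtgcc

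The first question was whether the drug, or the weight loss matched to it, changed the level of any clock gene. No member passed the test in any of the 3 group comparisons (limma, Benjamini-Hochberg adjusted p under 0.05 over 13308 genes). In CANA against HFD 0 of 8 members were called, against 0.165% of all genes. In CR against HFD 0 of 8 were called, against 0% of all genes, and in CANA against CR 0 of 8, against 0.150%. At an unadjusted p under 0.05 the counts were 2 of 8 in CANA against HFD (8.82% of all genes), 1 of 8 in CR against HFD (3.74%) and 2 of 8 in CANA against CR (8.43%). The genes behind these counts were Per3 and Bhlhe40, both lower in CANA, and Per1, higher in CR.

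**Figure D1:**
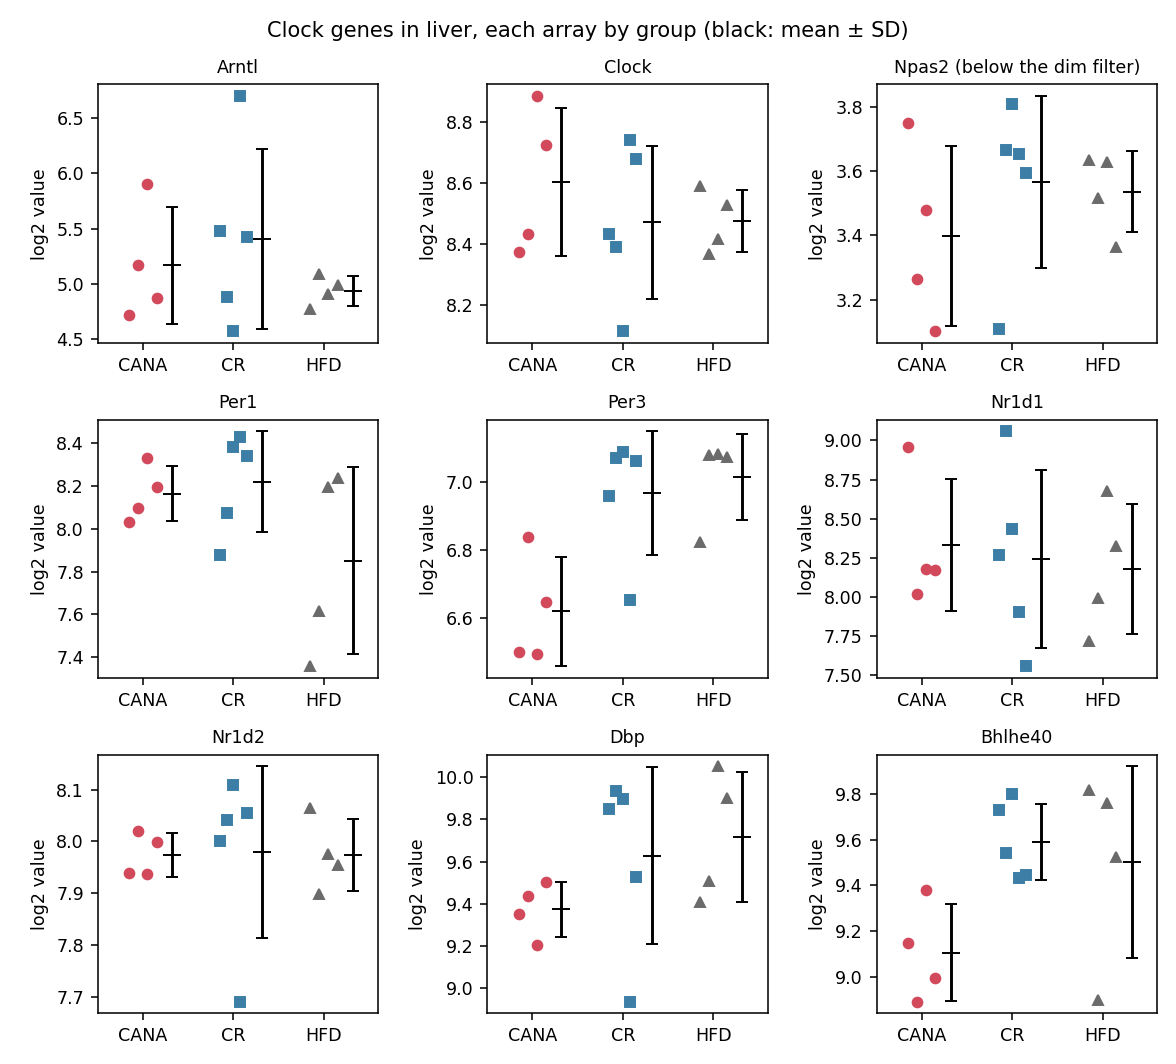
Log2 intensity (vertical axis) of the 9 measured clock genes in each of 13 arrays, 1 point per array, with CANA (n = 4), CR (n = 5) and HFD (n = 4) from left to right; bars are group means and error bars SD. Arntl spans 4.57 to 6.70 with its highest point in CR, and the 4 CANA points of Bhlhe40 lie below all 5 CR points.

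Among the activators, Arntl varied more between the arrays of a group than between groups. It measured 4.71, 5.17, 5.91 and 4.88 in CANA arrays, 5.48, 4.88, 4.57, 6.70 and 5.42 in CR arrays, and 4.77, 5.09, 4.91 and 4.99 in HFD arrays. One CANA array (replicate 3) and one CR array (replicate 4) stood above the rest of their groups, the HFD arrays lay close together, and all 3 groups overlapped. The CANA minus HFD difference was 0.23 ± 0.34 (SE, limma adjusted p = 0.921), with a 95% interval of -0.50 to 0.96. The CR minus HFD difference was 0.47 ± 0.33 (adjusted p = 0.999), and it was 0.15 without CR replicate 4. The CANA minus CR difference was -0.24 ± 0.33 (adjusted p = 0.886), and 0.08 without that array. Serial numbers 1 to 8 were replicates 1 and 2 of CANA and HFD and replicates 1 to 3 of CR. Numbers 9 to 14 were the remaining arrays, so that differences within a set rest on few arrays. Within serial numbers 1 to 8 and 9 to 14 Arntl differed by 0.01 and 0.44 in CANA minus HFD and by 0.05 and 1.11 in CR minus HFD.

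Clock, whose protein pairs with ARNTL, was the steadier of the partners. It averaged 8.61 ± 0.24 in CANA, 8.47 ± 0.25 in CR and 8.48 ± 0.10 in HFD arrays (SD over 4, 5 and 4 arrays). In CANA minus HFD the difference was 0.13 with an interval of -0.17 to 0.43 (limma adjusted p = 0.872), and its CR minus HFD difference lay between -0.29 and 0.28. Npas2, the other partner of ARNTL, averaged 3.40 ± 0.28 in CANA, 3.57 ± 0.27 in CR and 3.54 ± 0.13 in HFD arrays (SD), below the limit of 3.95 for dim genes. In a fit without that limit its differences were -0.14 in CANA minus HFD and 0.03 in CR minus HFD (limma adjusted p = 0.899 and 0.999).

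The repressor Per3 had the lowest unadjusted p of the clock genes in both comparisons of the drug. It measured 6.50, 6.84, 6.50 and 6.65 in CANA arrays, 6.96, 7.07, 7.09, 6.65 and 7.06 in CR arrays, and 6.83, 7.08, 7.08 and 7.08 in HFD arrays. Of the CANA arrays 3 lay below every HFD array, and replicate 2 lay just above the lowest of them. The CANA minus HFD difference was -0.40 ± 0.12 (SE), a ratio of 0.760, with an interval of -0.64 to -0.15, and ranked 194 of 13308 genes by p. The p of 0.00359 became 0.245 after adjustment in limma. The CANA minus CR difference of -0.35 ± 0.11 had an adjusted p of 0.345 in limma, and CR and HFD arrays differed by -0.05 ± 0.11. Without CR replicate 4, the lowest CR array, the CANA minus CR difference was -0.43 (adjusted p = 0.201). The difference of CANA from HFD was below 0 in both serial-number sets, at -0.28 and -0.51, as was that from CR, at -0.37 and -0.29.

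Per1, which also responds to glucocorticoids, had higher means in CANA and CR than in HFD arrays. It measured 8.03, 8.10, 8.33 and 8.19 in CANA arrays, 7.88, 8.07, 8.38, 8.43 and 8.34 in CR arrays, and 7.36, 7.61, 8.19 and 8.24 in HFD arrays. The first pair of HFD arrays lay below every CANA and CR array, and the second pair lay among them. The CR minus HFD difference was 0.37 ± 0.17 (SE, unadjusted p = 0.0451, limma adjusted p = 0.999). The CANA minus HFD difference was 0.31 ± 0.18 (adjusted p = 0.658), and CANA and CR differed by -0.06 ± 0.17. The low pair of HFD arrays carry serial numbers 2 and 5, and the differences were larger in the earlier serial-number set. Within serial numbers 1 to 8 Per1 was 0.58 higher in CANA and 0.63 higher in CR than in HFD arrays. Within 9 to 14 these differences were 0.05 and 0.17.

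Nr1d1 and Nr1d2, the REV-ERB repressors, differed by at most 0.16 between group means over all arrays, but Nr1d1 differed by more, and in opposite directions, within the serial-number sets. Nr1d1 measured 8.96, 8.02, 8.18 and 8.17 in CANA arrays, 8.27, 9.06, 8.43, 7.90 and 7.56 in CR arrays, and 7.72, 7.99, 8.68 and 8.32 in HFD arrays. The arrays of the CR group alone spanned the whole range of the other groups. Its CANA minus HFD difference was 0.16 with an interval of -0.44 to 0.76, and its CR minus HFD difference was 0.07 with an interval of -0.50 to 0.64. Within serial numbers 1 to 8 Nr1d1 differed by 0.63 in CANA minus HFD and 0.73 in CR minus HFD. Within 9 to 14 these differences were -0.32 and -0.77, and none passed adjustment. Nr1d2 was far tighter. It measured 7.94, 8.02, 7.94 and 8.00 in CANA arrays, 8.00, 8.04, 8.11, 7.69 and 8.05 in CR arrays, and 8.07, 7.90, 7.98 and 7.95 in HFD arrays. CR replicate 4 was the lowest array of the 13, and the others spanned 7.90 to 8.11. The intervals of its differences were -0.20 to 0.20 in CANA minus HFD and -0.19 to 0.20 in CR minus HFD.

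Dbp, a clock output that activates D-box genes, measured 9.35, 9.44, 9.20 and 9.50 in CANA arrays, 9.85, 9.94, 9.90, 8.94 and 9.53 in CR arrays, and 9.41, 9.51, 10.05 and 9.90 in HFD arrays. CR replicate 4 was again the lowest array of the 13, while the other 4 CR arrays stood above all CANA arrays. The CANA minus HFD difference was -0.34 ± 0.20 (SE, limma adjusted p = 0.658), and the CR minus HFD difference was -0.09 ± 0.19. The CANA minus CR difference was -0.25 ± 0.19 (adjusted p = 0.750). Without CR replicate 4 it was -0.43, with an unadjusted p of 0.00938 and a limma adjusted p of 0.486. The comparisons with CR had opposite directions in the serial-number sets: CR minus HFD was 0.44 within numbers 1 to 8 and -0.75 within 9 to 14, and CANA minus CR was -0.50 and 0.12. The CR arrays numbered 9 to 14 were only replicates 4 and 5, and none of these differences passed adjustment.

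Bhlhe40, a repressor of E-box genes that also responds to nutrients and hypoxia, gave the only comparison of clock genes in which the arrays of a pair of groups did not overlap. It measured 9.15, 8.89, 9.38 and 9.00 in CANA arrays, 9.73, 9.54, 9.80, 9.43 and 9.45 in CR arrays, and 9.82, 8.90, 9.76 and 9.52 in HFD arrays. All 4 CANA arrays lay below all 5 CR arrays, while HFD replicate 2 lay nearly as low as the lowest CANA array. The CANA minus CR difference was -0.49 ± 0.16 (SE), a ratio of 0.714, with an interval of -0.83 to -0.14, an unadjusted p of 0.00925 and a limma adjusted p of 0.411. Arrays of CANA and CR did not overlap for 1 of 8 clock genes and for 2.93% of all genes. Against HFD they overlapped for all 8 in both groups, where 4.90% of all genes did not overlap between CANA and HFD and 1.17% between CR and HFD. The CANA minus HFD difference of Bhlhe40 was -0.40 ± 0.17 (adjusted p = 0.520), and CR and HFD differed by 0.09 ± 0.16. In both serial-number sets Bhlhe40 differed below 0 in CANA minus CR, by -0.67 and -0.25, and in CANA minus HFD, by -0.34 and -0.45.

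**Figure D2:**
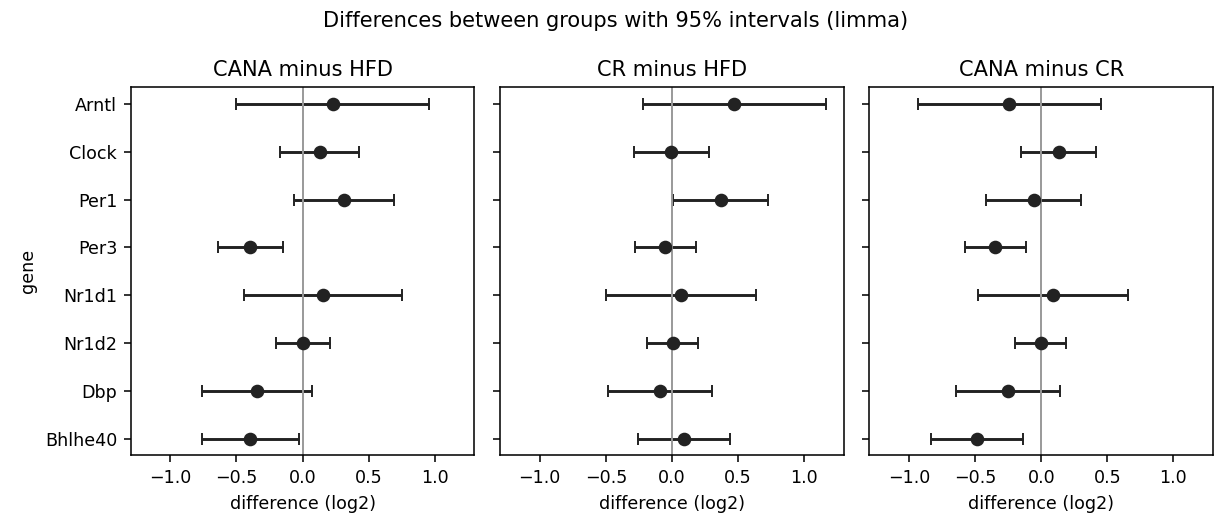
Group differences in log2 intensity of the 8 tested clock genes (horizontal axis) in CANA minus HFD, CR minus HFD and CANA minus CR; points are limma estimates and lines their 95% intervals. The intervals of Per3 and Bhlhe40 lie below 0 in both comparisons with CANA, that of Per1 lies just above 0 in CR minus HFD, and no adjusted p is below 0.245.

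Other genes of the clock pathway were read from the same fits. Of 18 listed partners of the clock, 13 were tested, and limma called 0 of these in any group comparison. Over all genes it called 0.165% in CANA against HFD, 0% in CR against HFD and 0.150% in CANA against CR. At an unadjusted p under 0.05 there were 1 of 13 in CANA against HFD (8.82% of all genes), 0 in CR against HFD (3.74%) and 2 in CANA against CR (8.43%). Their median CANA minus HFD difference was -0.07, with 4 above 0 and 9 below, beside a median of -0.01 over all genes. Cry2, a cryptochrome that acts with the PER proteins, averaged 7.01 ± 0.22 in CANA, 7.31 ± 0.15 in CR and 7.37 ± 0.17 in HFD arrays (SD). Its CANA minus HFD difference was -0.36 (limma adjusted p = 0.370). Tef, a D-box activator related to DBP, averaged 6.79 ± 0.19 in CANA, 7.06 ± 0.15 in CR and 7.05 ± 0.22 in HFD arrays. Nfil3, the repressor of D-box genes, averaged 6.66 ± 0.50 in CANA, 6.23 ± 0.59 in CR and 6.11 ± 0.21 in HFD arrays, with a CANA minus HFD difference of 0.55 (adjusted p = 0.609). Ciart, a repressor of the ARNTL and CLOCK pair, was 0.42 higher in CR than in HFD arrays (adjusted p = 0.999).

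Among genes known to cycle in liver, 13 of 14 listed outputs were tested and limma called 0, while 4, 1 and 3 had an unadjusted p under 0.05 in CANA against HFD, CR against HFD and CANA against CR. Over all genes the shares called were 0.165%, 0% and 0.150%, and those with such a p 8.82%, 3.74% and 8.43%. Their differences had medians of 0.06 in CANA minus HFD and 0.20 in CR minus HFD. Pnpla2, the lipase that starts triglyceride breakdown, came nearest to the threshold, with a CANA minus HFD difference of 0.70 (limma adjusted p = 0.0609). Elovl3, a fatty acid elongase, differed by 1.20 in CANA minus HFD (adjusted p = 0.210) and by 0.81 in CR minus HFD (adjusted p = 0.999). Wee1, a cell cycle kinase, differed by -0.60 and Noct, a rhythmic phosphatase of NADP(H), by 0.62 in CANA minus HFD (adjusted p = 0.259 and 0.266). Of the 6 tested genes of the heat shock and temperature list 0 were called and 2 had an unadjusted p under 0.05 in CANA against HFD, with a median of -0.20 in CANA minus HFD and -0.10 in CR minus HFD. The chaperones Hsph1 and Hsp90aa1 differed by -0.44 and -0.35 in CANA minus HFD (adjusted p = 0.520 and 0.532).

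For 6 of the 8 tested clock genes the arrays within a group differed more than for the median gene, with the spread pooled over the 3 groups. The within-group SD was 0.595 for Arntl, 0.484 for Nr1d1, 0.323 for Dbp, 0.290 for Per1 and 0.279 for Bhlhe40, against a median of 0.172 over all genes. Arntl was thus at percentile 99.2 of all genes tested and Nr1d1 at 98.6. The spread of Arntl was uneven, with an SD of 0.53 in CANA, 0.81 in CR and 0.135 in HFD arrays. For Nr1d1 the SD was 0.42, 0.57 and 0.42. Per3, at 0.161 and percentile 42.9, and Nr1d2, at 0.114 and percentile 12.3, varied no more than the common gene.

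A second question was whether genes of opposite phase moved in opposite directions from array to array. The values of 13 arrays were centred on their group means and correlated over the 36 pairs of the 9 measured members. An exact permutation test within groups, two-sided, was adjusted over the 36 pairs. None passed, 0 of 36, while 4 had an unadjusted p under 0.05, and with Spearman's rho 0 of 36 passed. All pairs share the same 13 arrays.

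Of the 4 pairs with an unadjusted p under 0.05, 3 held Arntl, and in 2 of these its partner was a gene of the opposite phase. Arntl and Nr1d2 correlated at r = -0.823 (n = 13, exact permutation p = 0.00776, adjusted p = 0.204; rho = -0.698, p = 0.00969). Arntl and Dbp correlated at r = -0.728 (n = 13, exact permutation p = 0.0170, adjusted p = 0.204; rho = -0.550, p = 0.0659). Arntl and its partner Clock correlated at r = 0.735 (n = 13, exact permutation p = 0.0259, adjusted p = 0.233; rho = 0.593, p = 0.0772). For Arntl with Clock and with Dbp these directions were not common to all groups: within the 4 HFD arrays r was -0.755 and 0.168. For Arntl and Nr1d2 r was below 0 in each group, at -0.29 in CANA, -0.95 in CR and -0.99 in HFD arrays. On the other side of the loop Per3 and Dbp correlated at r = 0.749 (n = 13, exact permutation p = 0.0119, adjusted p = 0.204; rho = 0.610, p = 0.0298). Nr1d1 and Dbp correlated at r = 0.614 (n = 13, exact permutation p = 0.0653, adjusted p = 0.375; rho = 0.747, p = 0.0150, adjusted p = 0.269).

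**Figure D3:**
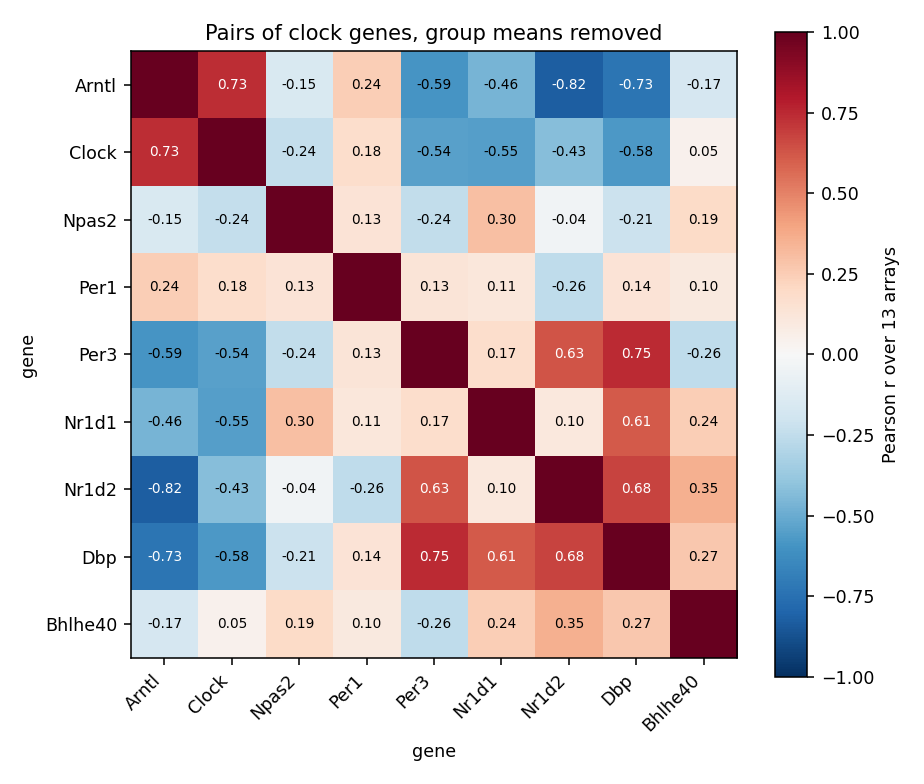
Pearson r between each pair of the 9 measured clock genes over 13 arrays after removing group means, in colour and digits. Arntl with Nr1d2 (-0.823) and with Dbp (-0.728) are negative, Arntl with Clock (0.735) and Per3 with Dbp (0.749) positive, and no pair passes adjustment over 36 pairs.

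CR replicate 4 moved 3 of these pairs the most. In that array Arntl and Clock were at 6.70 and 8.74, and Dbp, Per3 and Nr1d2 at 8.94, 6.65 and 7.69. Without it r was -0.481 for Arntl and Nr1d2, -0.352 for Arntl and Dbp, and 0.481 for Per3 and Dbp, while Arntl and Clock stood at 0.683 and Nr1d1 and Dbp at 0.675. Without the 2 arrays farthest from the median of the first gene of each pair, r was -0.537 for Arntl and Nr1d2, -0.330 for Arntl and Dbp, 0.539 for Arntl and Clock and 0.760 for Per3 and Dbp. These last values kept group means that still included the arrays left out, which itself affects r. The values without CR replicate 4 were centred anew. The relation of Arntl to Nr1d2 and Dbp thus rested in part on CR replicate 4, and its direction was the same without that array.

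**Figure D4:**
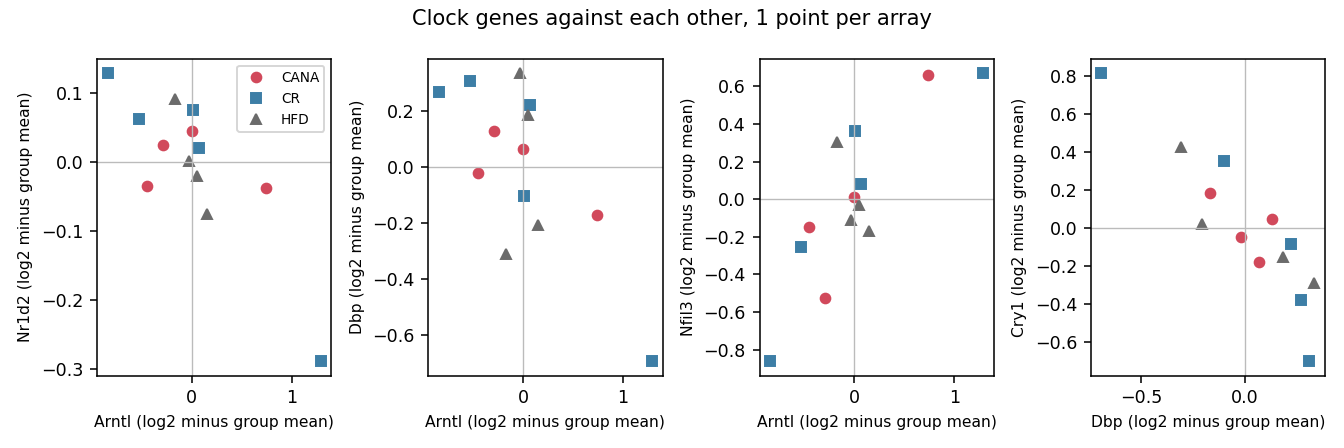
Deviations from the group mean in log2 intensity, with Arntl on the horizontal axes against Nr1d2, Dbp and Nfil3 on the vertical axes, and Dbp against Cry1, 1 point per array (CANA, CR and HFD in separate colours). CR replicate 4 lies farthest out in Arntl, and r is -0.823 and -0.728 in the first panels, 0.836 for Arntl with Nfil3 and -0.904 for Dbp with Cry1.

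The mean deviation of Arntl and Clock minus that of the 6 other tested members sums the opposition in 1 value per array and is given with no test. It was -0.27, 0.09, 0.65 and 0.06 in CANA arrays, 0.02, -0.47, -0.77, 1.06 and 0.23 in CR arrays, and -0.01, 0.07, -0.45 and -0.23 in HFD arrays. CR held both the lowest and the highest array, replicates 3 and 4, and the 3 groups overlapped. The means were 0.14 ± 0.38 in CANA, 0.01 ± 0.70 in CR and -0.15 ± 0.24 in HFD arrays (SD).

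The last question was whether clock genes moved along the serial number. In a fit with group and serial number 0 of 8 members passed, against 0.376% of all genes, and 1 of 8 had an unadjusted p under 0.05, against 11.9%. That gene was Per1, with a slope of 0.05 ± 0.01 per serial number (SE, unadjusted p = 0.00053, limma adjusted p = 0.0766), rank 92 of 13308. Within each group the second number and the replicate number rise with the serial number, so a slope along it cannot be told apart from theirs. With the second number in its place the lowest limma adjusted p of a member was 0.0824. Per1 averaged 8.29 ± 0.09 in the 6 arrays numbered 9 to 14 and 7.92 ± 0.34 in the 7 numbered 1 to 8 (SD). Within 9 to 14 the slope was -0.02, and within 1 to 8 it was 0.08 (unadjusted p = 0.0341). Left out next were the arrays numbered 1 and 2, as the farthest from the median number, while number 14, as far as 2, was kept. The slope was then 0.05 (limma adjusted p = 0.429).

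The means of both activators were higher in the later set too, without passing the test. Arntl averaged 5.47 ± 0.72 in arrays numbered 9 to 14 and 4.95 ± 0.31 in those numbered 1 to 8, and Clock 8.66 ± 0.17 and 8.39 ± 0.14 (SD, n = 6 and 7). With the sets in place of the number, the differences were 0.55 for Arntl and 0.27 for Clock (limma adjusted p = 0.333 and 0.195). Dbp, of the opposite phase, averaged 9.52 ± 0.42 in the later set and 9.63 ± 0.26 in the earlier, and Nr1d1 8.14 ± 0.38 and 8.35 ± 0.50. The slopes of Dbp and Nr1d1 were -5e-04 and -0.03 per serial number (adjusted p = 0.997 and 0.743), against 0.04 for Arntl and 0.02 for Clock (adjusted p = 0.689 and 0.466). None of these passed. Within numbers 1 to 8 and 9 to 14 the slopes were -0.0538 and -0.25 for Arntl, -0.0459 and -0.0125 for Clock, and 0.0194 and 0.0821 for Dbp, so that those of the activators turned below 0 inside both sets. Within the sets r between Arntl and Dbp was -0.495 over numbers 1 to 8 and -0.887 over 9 to 14, and between Arntl and Nr1d2 -0.584 and -0.881. Centred on the group means of the set itself, a setting added after seeing the data, the Arntl and Dbp correlation turned to 0.0996 over numbers 1 to 8 and was -0.964 over 9 to 14. For the Arntl and Nr1d2 correlation these values were -0.488 and -0.873. The smallest p that the permutation allows in these sets is 0.0417 and 0.125.

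The slope differed between the groups for 0 of 8 members after adjustment (0% of all genes) and at an unadjusted p under 0.05 for 3 of 8 (4.34%). These were Nr1d1, Dbp and Per1 (unadjusted p = 0.0211, 0.0321 and 0.0493, limma adjusted p = 0.9999 each). Nr1d1 had slopes of -0.05 in CANA, -0.09 in CR and 0.07 in HFD arrays. Dbp had slopes of 0.0033 in CANA, -0.06 in CR and 0.06 in HFD arrays. The slopes of both were below 0 in CR and above 0 in HFD arrays. Those of Per1 were 0.0201 ± 0.0171 in CANA, 0.0455 ± 0.0171 in CR and 0.0864 ± 0.0171 in HFD arrays (SE).

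**Figure D5:**
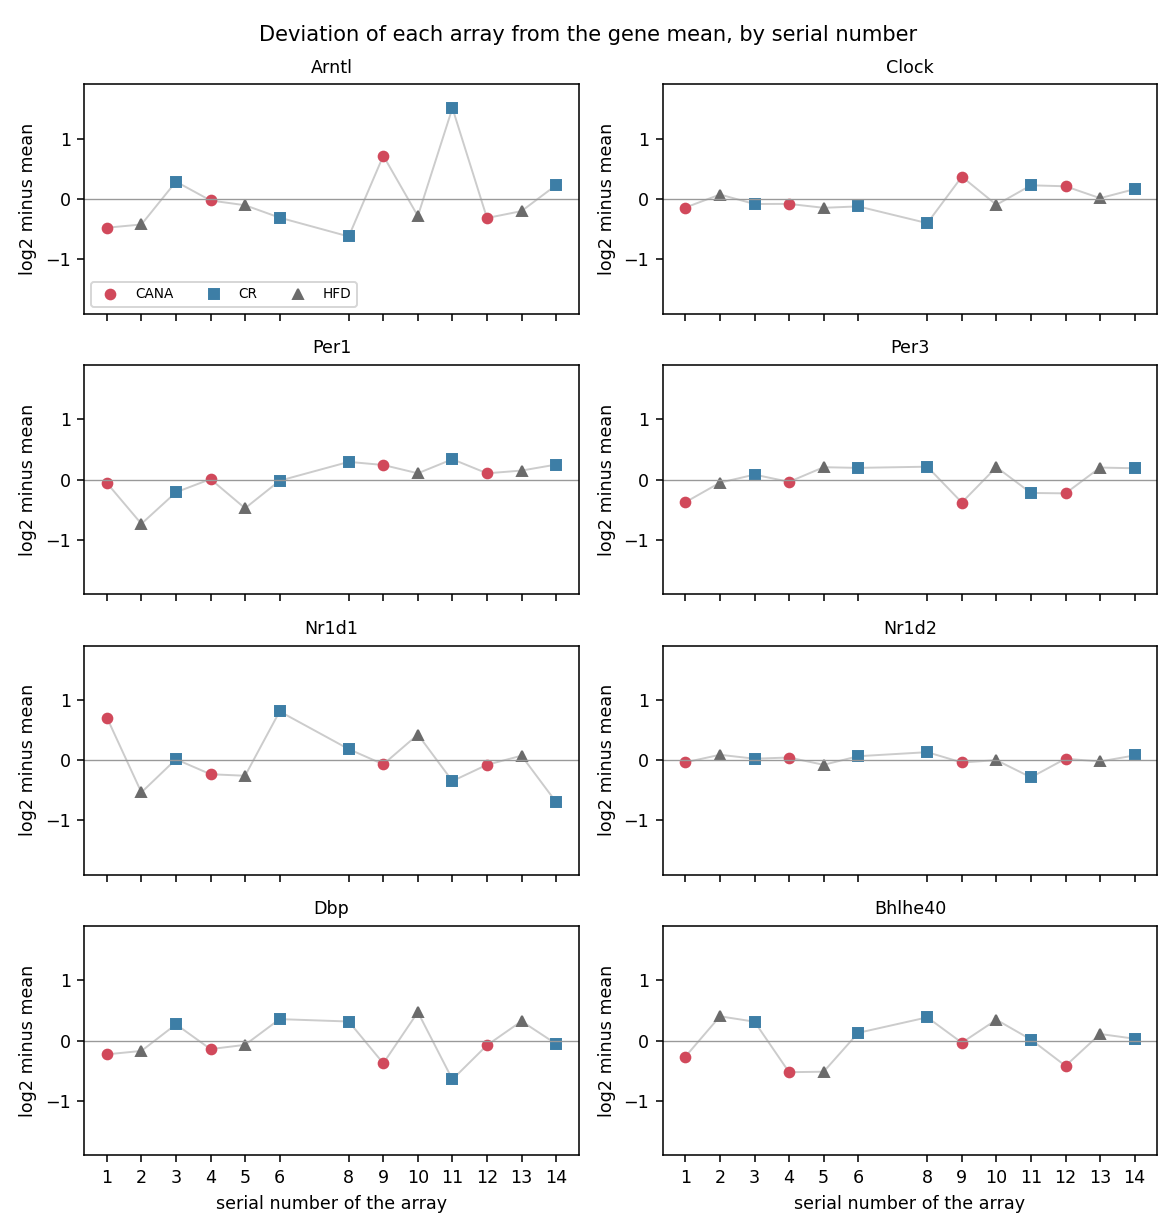
Deviation from the mean of the gene over 13 arrays in log2 intensity (vertical axis) of the 8 tested clock genes against the serial number of the array (horizontal axis), with CANA, CR and HFD arrays in separate colours. Per1 has a slope of 0.05 per number (adjusted p = 0.0766), and the slopes of Arntl and Dbp are 0.04 and -5e-04; grey lines join arrays in order of the number.

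Per1 belongs also to a list of 10 glucocorticoid targets, all tested, of which 10 had a slope above 0, 6 an unadjusted p under 0.05 (11.9% of all genes) and 0 a call in limma (0.376%). The median slope was 0.03, beside -9e-04 over all genes. Dusp1, a phosphatase of MAP kinases, had a slope of 0.08 (limma adjusted p = 0.178) and Klf9, a transcription factor, one of 0.03 (adjusted p = 0.322). The mean deviation of the 9 others was -0.11, -0.14, 0.23 and 0.08 in CANA arrays, 0.04, 0.02, -0.28, 0.32 and 0.36 in CR arrays, and -0.28, -0.34, 0.16 and -0.08 in HFD arrays. Its lowest arrays were HFD replicates 1 and 2, in which Per1 was lowest, and CR replicate 3, in which Per1 was at 8.38 and second highest of the 13. Its part in the level of Per1 was not tested. Slopes were above 0 for 12 of the 13 cycling outputs (median 0.02), 7 of the 13 partners of the clock (median 5e-04) and 6318 of all 13308 genes.

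The genes that moved most like Arntl over the 13 arrays, with group means removed, were Clpx, a subunit of the mitochondrial Clp protease (r = 0.960), Ablim3 (0.904), Ahctf1 (0.890), Ypel2 (0.883) and Chka, a choline kinase (0.870). Those that ran most against it were Thra, the thyroid hormone receptor alpha (-0.924), the copper transporter Slc31a1 (-0.919), Tbl2 (-0.899), Espn (-0.891) and Ncapd2 (-0.886). Thra lies beside Nr1d1, and their annotations overlap. The values of Thra and Nr1d1 correlated at 0.526. Dbp ran most with Hectd2os (0.90), Fn3k (0.897), Ifngr2 (0.889), Dppa3 (0.839) and Bglap (0.838). It ran most against Cry1, a cryptochrome (-0.904), then Sap30 (-0.888), Hip1r (-0.872), Denn2b (-0.855) and Ggh (-0.848). These genes were picked for their r among 13308, so no p is given.

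Some known partners of the clock stood on either side of this contrast, and others did not. Nfil3, which opposes DBP at D-boxes, had r = 0.836 with Arntl and -0.698 with Dbp. Cry1 had r = 0.720 with Arntl and -0.904 with Dbp, and in CR replicate 4 it stood at 6.88, above the 5.37 to 6.42 of the other arrays. Tef had r = -0.599 with Arntl and 0.781 with Dbp, and Ciart -0.541 and 0.750. Cry2 had r = 0.048 with Arntl and 0.129 with Dbp. Of the other tested partners, Csnk1e had r = 0.641 with Arntl and -0.572 with Dbp, Rora 0.528 and -0.242, and Bhlhe41 -0.707 and 0.261. For Hlf the values were -0.394 and 0.312, for Arntl2 -0.313 and 0.378, and for Fbxw11 -0.296 and 0.009. Timeless had 0.154 and -0.186, and Btrc -0.056 and 0.046. These values describe the same 13 arrays as the pairs above and are given with no test.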

How the data were processed

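Liver RNA was isolated in TRIzol, and 250 ng entered the WT Plus labelling, per the labels' protocols. The deposited values are log2 intensities that the authors computed with RMA in Affymetrix Expression Console, per the submitters' processing notes, with no versions given. RMA normalizes quantiles over all arrays jointly, so each value depends on the other arrays. The array's genome build is not given in the sources used here.

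Of 41345 probe sets, 23521 carried 1 gene symbol in the platform's annotation (23328 matched to RefSeq by Entrez identifier), 1814 several and 16010 none. For each of 22180 genes the probe set with the highest mean was used. Genes with a mean under the 40th percentile (log2 3.95) were left out as dim, which left 13308.

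The group comparisons used limma 3.58.1 (R 4.3.3) and 1 fit to all 13 arrays, with 10 residual and 5.71 prior degrees of freedom, and two-sided p-values were adjusted by Benjamini-Hochberg over all genes tested. Slopes came from a fit with group and serial number, and their difference between groups from an interaction term. Pairs of members were tested by exact permutation of arrays within groups. Adjustment ran over 36 pairs because 9 of the 10 members had a probe set of their own. No 2 arrays held identical values (0 pairs), and precision is limited by how many arrays there were. Scripts were tested on simulated data.

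The members, lists and tests were chosen with earlier results of these data known. Named were all members, up to 4 genes of each other list with the smallest p in a comparison, and the 5 genes with the highest and the 5 with the lowest r to Arntl and to Dbp, without predicted loci. The r of all tested clock partners to Arntl and to Dbp is given as well. The alternatives were other filters and normalizations, the mean of probe sets, array weights, other terms for either number, the arrays of each serial-number set, the replicate number as a block, and leaving out each array in turn. Correlations within a set centred on that set were added after seeing the data.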

Additional observations from a re-analysis of the deposited data

Results flagged for a closer look

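In 2 of 27 sets of a clock gene in a group, the lowest array lay far from the others by Dixon's criterion, and chance gives about 1 in 20 such sets. Per3 in HFD arrays was lowest in replicate 1 at 6.83, against 7.08 in the nearest array, a gap of 0.974 of the group's range (critical value 0.829). Nr1d2 in CR arrays was lowest in replicate 4 at 7.69, against 8.00 in the nearest array, a gap of 0.741 of the range (critical value 0.71). The same CR array had the highest Arntl and the lowest Dbp of the 13.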

How the results depend on the processing

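No clock gene passed the adjusted threshold under any alternative that was run. Of the 13 pair fits that left out 1 array, 2 held a pair that did. These were Arntl and Nr1d2 without CANA replicate 1 (r = -0.894, exact permutation adjusted p = 0.0438) and Per3 and Nr1d2 without HFD replicate 1 (r = 0.879, adjusted p = 0.025). Leaving out 1 array thus gave 0 to 1 pairs called, and the 8 other pair settings gave 0. Those within a serial-number set could hardly call a pair, as the smallest p they allow is 0.0417 and 0.125. Differences and slopes of members kept their direction in 424 of 472 fits under other settings and in 374 of 416 that left out 1 array, and correlations of the named pairs in 64 of 72 and in 117 of 117. Part of the kept directions under other settings was fixed in advance. Other dim filters, a variance trend and the mean of probe sets (1 per member) cannot change the differences and slopes of members. A fit to only the arrays compared cannot change the differences, nor the mean of probe sets the correlations. Over all genes, the number called ran from 0 to 46 under other settings and 3 to 38 leaving out 1 array in CANA against HFD, from 0 to 1 and 0 in CR against HFD, from 0 to 26 and 7 to 23 in CANA against CR, and from 0 to 93 and 3 to 90 for the slope. The cause of the reversals below was not tested.

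Within serial numbers 1 to 8 the reversed differences were -0.0754 for Clock and -0.0022 for Nr1d2 in CANA minus HFD, 0.435 for Dbp and 0.0863 for Per3 in CR minus HFD, and -0.10 for Nr1d1 in CANA minus CR. The reversed slopes there were -0.0538 for Arntl, -0.0459 for Clock, 0.0194 for Dbp and 0.0063 for Nr1d2. Within 9 to 14 they were -0.32 for Nr1d1 in CANA minus HFD, -0.20 for Bhlhe40, 0.24 for Clock, -0.77 for Nr1d1 and -0.0924 for Nr1d2 in CR minus HFD, and 0.12 for Dbp and 0.10 for Nr1d2 in CANA minus CR. The slopes there were -0.25 for Arntl, -0.0125 for Clock, 0.0821 for Dbp, 0.0449 for Nr1d2 and -0.0202 for Per1. With the set as a term Clock and Nr1d2 differed by 0.0229 and -0.002 in CR minus HFD and Nr1d2 by 0.0026 in CANA minus CR. With the serial number as a covariate Nr1d2 differed by -0.0036 in CANA minus HFD and Per1 by 0.0406 in CANA minus CR, and with the second number Per1 by 0.15.

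A further quantile normalization gave -0.0046 for Nr1d2 in CANA minus HFD and 0.0029 for Clock in CR minus HFD. Centring on array medians gave 0.0041 for Clock in CR minus HFD, 0.0004 for Nr1d2 in CANA minus CR and a slope of 0.0016 for Dbp. Array weights gave 0.0189 for Clock and -0.0026 for Nr1d2 in CR minus HFD, 0.0032 for Nr1d2 in CANA minus CR and a slope of 0.0027 for Dbp. Without a group term the slopes of Bhlhe40 and Dbp were 0.0045 and 0.0041. With the second number in its place those of Bhlhe40, Dbp and Nr1d1 were 0.0006, 0.0035 and 0.0045, and with the set in its place those of Bhlhe40 and Per3 were 0.0467 and -0.059. With the arrays numbered 1 and 2 left out they were 0.0118 and -0.0106.

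The Arntl and Per1 correlation (r = 0.243) was -0.639 within numbers 1 to 8, at -0.542 centred on that set and at -0.048 without the 2 farthest arrays. The Arntl and Per3 correlation (r = -0.587) was 0.220 centred on that set and 0.039 without the 2 farthest arrays, and the Arntl and Dbp correlation was 0.0996 centred on it. Values without the 2 farthest arrays kept the group means that included them. Centred on numbers 9 to 14, the Arntl and Nr1d1 correlation was 0.521 and the Nr1d1 and Dbp correlation -0.461.

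Leaving out 1 array, CANA minus HFD spanned -0.0197 to 0.38 for Arntl, -0.0527 to 0.32 for Nr1d1 and -0.0243 to 0.0312 for Nr1d2. CR minus HFD spanned -0.11 to 0.20 for Bhlhe40, -0.0718 to 0.085 for Clock, -0.19 to 0.0838 for Dbp, -0.14 to 0.24 for Nr1d1, -0.0268 to 0.0777 for Nr1d2 and -0.11 to 0.0296 for Per3. CANA minus CR spanned -0.49 to 0.0787 for Arntl, -0.12 to 0.29 for Nr1d1 and -0.077 to 0.0274 for Nr1d2. Slopes spanned -0.0143 to 0.0073 for Bhlhe40, -0.0133 to 0.0102 for Dbp, -0.0081 to 0 for Nr1d2 and -0.0033 to 0.0087 for Per3.

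The replicate numbers of the labels were not taken to pair the arrays. Deviations of same-numbered arrays correlated at a median of 0.114 (-0.150 to 0.297, 7 of 12 pairs over 0.1), against -0.048 for 44 pairs with different numbers, and 8 of 12 arrays correlated best with an array of their own number. How many would do so by chance was not computed. The replicate number rises with the serial number within each group, so this likeness and a trend along the serial number cannot be told apart. With the replicate number as a block 0 members were called, and 29 genes in CANA against HFD, 1 in CR against HFD and 17 in CANA against CR. The block gave -0.52 for Bhlhe40 in CANA minus CR (limma adjusted p = 0.177), and reversed Nr1d2 to -0.0133 in CR minus HFD and 0.0139 in CANA minus CR and Nr1d1 to -0.083 in CANA minus CR.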
